A study of Homo sapiens with 6 samples.

Results

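The mitosis genes described here are 43 human genes whose products carry a cell through mitosis. They were chosen by symbol from a list: every row of the deposited expression table whose Ensembl identifier, without its version, maps to a listed symbol in GENCODE release 29. All 43 were found among the 58381 identifiers of the table, and all 43 passed the filter on low values that left 16047 genes for testing. Their RNA came from MCF10AT1, a human breast epithelial line derived from immortal MCF10A cells that carry an activated HRAS and had been passed through a mouse xenograft. The first group, CD24low, holds 3 libraries of cells sorted by flow cytometry for low CD24 and high CD44 on their surface, and the second, CD24high, holds 3 libraries of cells sorted for high CD24 that were also CD44 positive; the submitters' column names call the fractions CSC and Bulk. Both groups came from 1 cell line grown in DMEM/F12 with horse serum, insulin, EGF, cholera toxin and hydrocortisone, so the same oncogene and the same growth factors are present in both. The labels do not say whether the 3 replicates of a group were separate cultures, so p-values weigh a difference against the spread of these libraries alone, and that spread may be technical.

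Entry into mitosis is driven by the kinase CDK1 with cyclin A or cyclin B, which is switched on by CDC25 phosphatases and helped by the kinases PLK1 and AURKA. Kinetochores then join chromosomes to the spindle while checkpoint proteins hold back the anaphase-promoting complex, a ubiquitin ligase, until every chromosome is attached. Once that ligase is active, cyclin B and securin are destroyed, sister chromatids part and the cell divides. Most genes of this set are transcribed in G2 and M phase, and their RNA level in a population is widely read as a sign of how many cells are cycling. In bulk RNA such as this, fewer cells of a phase and less RNA per cell cannot be told apart.

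Promoters of such genes are known for 2 short elements, the cell cycle genes homology region (CHR), bound by the DREAM complex and by MYBL2 or FOXM1 with the MuvB core, and the CCAAT box, bound by NF-Y. They were looked for in RefSeq windows of 300 bases on GRCh38.p14, 250 before the transcription start and 50 after it. A window was given for 37 of the 43 genes (47 windows in all), and AURKA, BIRC5, FOXM1, TPX2, TTK and UBE2C had none. The CHR letters searched were TTTGAA and TTCGAA, on both strands. Other spellings of the CHR were not searched, so a window without a match may still hold one. They were in a window of 30 of the 37 genes, or 81.1%, and in 5336 of 27305 genes of the whole table, or 19.5%. The letters CCAAT, on both strands, were in 30 of the 37 genes (81.1%) and in 39.7% of all genes, and at least 2 copies were in 18 of the 37 (48.6%) and in 12.9% of all genes. Both elements were in 25 of the 37 genes (67.6%) and in 7.85% of all genes. The E2F letters TTTCCCGC or TTTGGCGC, on both strands, were in only 2 of the 37 (5.41%) and in 2.75% of all genes. No search pattern contains another. A match is a description of the letters and does not show binding.

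Of these windows 4 are printed as examples of the matches. All lie on the plus strand, from 5′ to 3′, with CHR and CCAAT matches of either strand in capitals (ATTGG and TTCAAA are the reverse complements of CCAAT and TTTGAA). CCNB2 (cyclin B2) and PLK1 show CCAAT boxes upstream of a CHR match close to the start. CDK1 shows 2 CCAAT boxes and 3 CHR matches. KIF20A shows 2 CCAAT boxes and neither of the 2 CHR spellings searched, which does not show that it lacks a CHR.
CCNB2, chr15:59104896-59105195: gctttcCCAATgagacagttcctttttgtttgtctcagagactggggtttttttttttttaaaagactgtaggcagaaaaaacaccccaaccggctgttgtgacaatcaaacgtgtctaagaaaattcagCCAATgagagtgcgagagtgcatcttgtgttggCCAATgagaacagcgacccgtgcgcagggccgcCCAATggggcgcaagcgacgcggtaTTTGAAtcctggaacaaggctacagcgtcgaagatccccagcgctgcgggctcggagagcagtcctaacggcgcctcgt
CDK1, chr10:60778228-60778527: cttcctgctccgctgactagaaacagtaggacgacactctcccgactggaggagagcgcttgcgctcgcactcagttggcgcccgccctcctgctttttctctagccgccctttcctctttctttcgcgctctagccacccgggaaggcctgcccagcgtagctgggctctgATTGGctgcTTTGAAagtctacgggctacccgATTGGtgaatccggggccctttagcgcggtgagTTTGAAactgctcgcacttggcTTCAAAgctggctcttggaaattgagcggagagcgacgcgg
PLK1, chr16:23678639-23678938: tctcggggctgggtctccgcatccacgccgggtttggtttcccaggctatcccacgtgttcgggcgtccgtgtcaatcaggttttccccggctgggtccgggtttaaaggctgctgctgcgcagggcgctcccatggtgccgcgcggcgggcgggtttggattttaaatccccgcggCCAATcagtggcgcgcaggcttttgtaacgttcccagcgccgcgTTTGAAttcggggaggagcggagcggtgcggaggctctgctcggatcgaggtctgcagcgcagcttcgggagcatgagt
KIF20A, chr5:138178862-138179161: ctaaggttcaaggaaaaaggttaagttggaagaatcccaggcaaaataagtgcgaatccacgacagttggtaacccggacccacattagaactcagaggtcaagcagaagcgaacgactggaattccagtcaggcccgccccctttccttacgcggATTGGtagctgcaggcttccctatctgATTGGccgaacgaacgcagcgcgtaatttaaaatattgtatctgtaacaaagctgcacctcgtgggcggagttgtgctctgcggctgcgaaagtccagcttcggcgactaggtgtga
Counting the first transcribed base as 1, the CHR match of CCNB2 begins at -29 and that of PLK1 also at -29, each downstream of the nearest CCAAT box, which begins at -54 in CCNB2 and at -73 in PLK1. In CDK1 the CHR matches begin at -69, -13 and 10.

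Recovered reads came to between 24421025 and 26988295 in the CD24low libraries and between 16691162 and 27293177 in the CD24high libraries. CD24 itself had 588, 329 and 1370 normalized counts in CD24low replicates 1, 2 and 3, against 4043, 2325 and 5687 in CD24high replicates 1, 2 and 3. The CD24low libraries were below all 3 CD24high libraries, as the sort labels say, and CD24low replicate 3 was the nearest to them. CD24 RNA differed by -2.55 on the log2 scale, CD24low minus CD24high. It passed DESeq2 (adjusted p = 0.027) but not limma (adjusted p = 0.084). CD44 RNA differed by -0.17 on the log2 scale, CD24low minus CD24high, with overlapping libraries (limma adjusted p = 0.56). On the first principal component of all genes CD24low replicate 3 also lay at -3.83, between the other CD24low libraries (-22.9 and -55.0) and the CD24high libraries (15.9 to 34.2). Ribosomal RNA took 7.15%, 7.07% and 1.97% of reads in CD24low replicates 1, 2 and 3 and 1.30%, 2.27% and 10.2% in CD24high replicates 1, 2 and 3, so neither group is uniform in it. The 8 epithelial markers, keratins, CDH1 and EPCAM, summed to between 85619 and 127071 normalized counts in CD24low libraries and between 133177 and 156794 in CD24high libraries, so cells of both fractions carry the epithelial markers of the line. The 6 mesenchymal markers summed to between 16198 and 55783 in CD24low libraries and between 4449 and 8288 in CD24high libraries. Marker sums of other cell types were smaller than these. The 5 endothelial genes summed to 110 to 345 in CD24low and 92.9 to 400 in CD24high. Most of this was PECAM1, with 105, 340 and 254 in CD24low and 85.5, 393 and 142 in CD24high replicates 1, 2 and 3. The 6 fibroblast genes summed to 32.3 to 123 in CD24low and 20.7 to 38.0 in CD24high (LUM at 0). Immediate early genes, which respond to handling, summed to 6419 to 9641 in CD24low and 7248 to 9085 in CD24high. The part of the marker and immediate early differences in any result below was not tested, and values by ribosomal RNA share stand beside the results they bear on.

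RNA of the mitosis genes was abundant in both fractions, and no member passed the test between them. Per kilobase of exon, the members' mean level over all 6 libraries ranked between the 52.4th percentile (ESPL1) and the 97.6th percentile (CDC20) of the 12644 protein-coding genes tested, with a median percentile of 85.8, and 36 of the 43 ranked above the 75th. CDC20 had 2077 normalized counts per kilobase in CD24low cells and 1766 in CD24high cells, and CCNB1 had 1936 in CD24low cells and 1782 in CD24high cells. At the other end, separase (ESPL1) had 108 per kilobase in CD24low cells and 102 in CD24high cells, and CDC25C had 122 in CD24low cells and 114 in CD24high cells. The 43 genes together took 0.724%, 0.678% and 0.752% of the protein-coding reads in CD24low replicates 1, 2 and 3, against 0.744%, 0.694% and 0.746% in CD24high replicates 1, 2 and 3. The 2 ranges overlap, with means of 0.718% ± 0.0373 in CD24low and 0.728% ± 0.0292 in CD24high (SD, n = 3 each).

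Differences below are the mean of log2 (normalized count + 1) in CD24low less that in CD24high, so a positive value means a higher level in CD24low cells. At an adjusted p under 0.05, limma called 0 of the 43 members, where it called 0.0% of the 16047 genes tested, and the smallest adjusted p of a member was 0.29 (KIF20A). Limma did not call CD24, the gene of the sort, either (adjusted p = 0.084), so a count of 0 calls does not show equal levels. edgeR's quasi-likelihood test on the recovered reads also called 0 members, beside 0.0% of all genes. DESeq2 on the same reads called 0 members, beside 402 or 2.51% of all genes. At an unadjusted limma p under 0.05 there were 3 members, or 6.98%, beside 13.5% of all genes tested.

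The members' values lay to both sides of 0: 20 were positive and 23 negative, with a median of -0.0049, beside a median of -0.0066 over all genes tested. Their differences ran from -0.34 for CDK1 to 0.32 for CDC25B, folds of 0.789 and 1.25. Among all genes tested, 76.1% had a difference no larger than that of CDK1, and 88.6% of the 7616 genes at least as abundant as the lowest member did. The median size of the difference, without its sign, was 0.12 for the members and 0.13 for those 7616 genes. For each of the 43 members the 95% interval of the difference, from limma and not adjusted over genes, lay within 1 log2 unit of 0, which holds for 79.5% of all genes tested and for 96.2% of those 7616 genes. The outermost bounds among the members were -0.70 (CDK1) and 0.70 (CDC25B), folds of 0.617 and 1.62. So at this depth and with 3 libraries a group, a doubling or halving of any 1 member lies outside its interval. The standard errors of the members ran from 0.098 to 0.176, so the size that can be told from 0 differs between members.

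**Figure D1:**
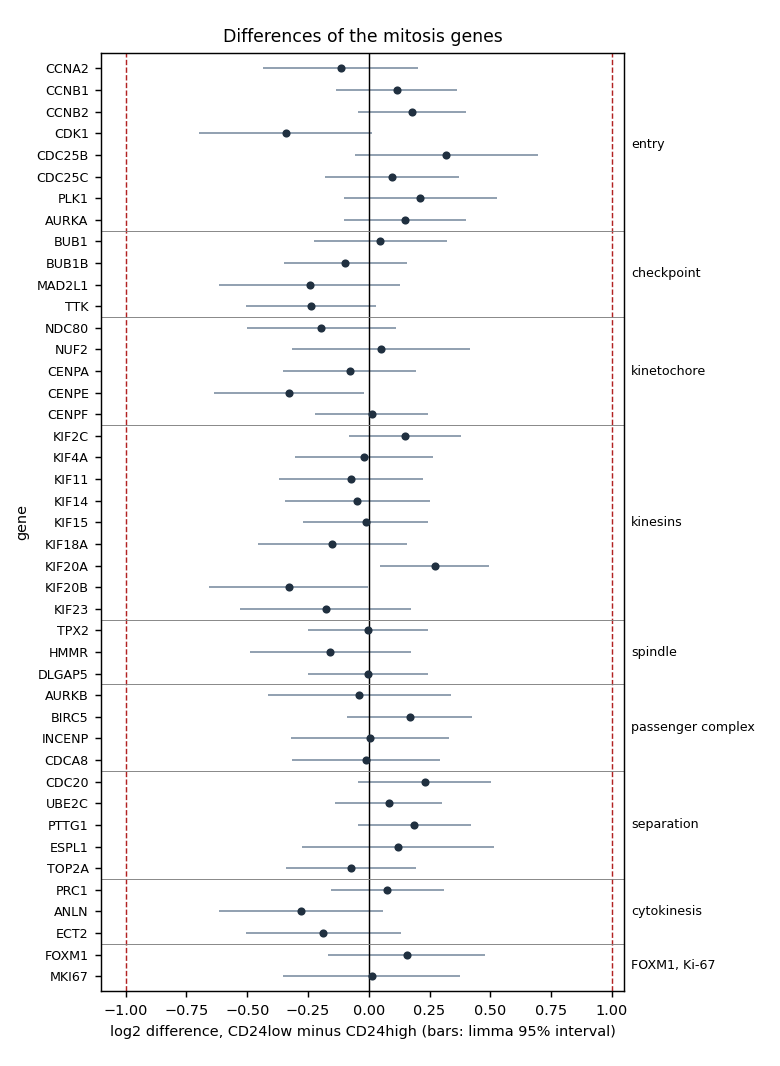
Differences of the 43 mitosis genes, CD24low minus CD24high, in log2 units (x axis), with limma 95% intervals as bars and genes grouped by role; dashed lines mark 1 log2 unit to each side. All 43 intervals lie between -0.70 and 0.70, and points fall on both sides of 0.

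The libraries of the 2 groups did not overlap for 4 members on the higher side in CD24low (CCNB2, KIF20A, UBE2C and PTTG1), or 9.30%, beside 10.2% of all genes tested. They did not overlap for 3 members on the lower side (TTK, CENPE and KIF20B), or 6.98%, beside 9.32% of all genes tested. Both shares lie near those of all genes.

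Of the 8 genes of mitotic entry 6 had positive differences and 2 negative ones, with a median of 0.13 and 0 called, where 7862 of all 16047 genes tested were positive. CCNB1, which encodes the main mitotic cyclin (chr5:69167010-69178245, hg38), had 4945, 4459 and 5450 normalized counts in CD24low replicates 1, 2 and 3, against 4766, 4494 and 4413 in CD24high replicates 1, 2 and 3. The ranges overlapped, with CD24low replicate 2 inside the CD24high range and CD24low replicate 3 the highest of all 6. The means were 4951 ± 496 in CD24low and 4557 ± 185 in CD24high (SD, n = 3 each), a difference of 0.12 (SE 0.11, 95% interval -0.13 to 0.36, limma adjusted p = 0.69). Without CD24low replicate 3 it was 0.044. Its partner kinase CDK1 (chr10:60778331-60794852) differed in the other direction, with 2033, 1696 and 2426 in CD24low libraries and 3092, 2319 and 2373 in CD24high libraries. CD24high replicate 1 stood above the other 5 libraries, and CD24low replicate 3 lay within the CD24high range. CDK1 averaged 2052 ± 365 in CD24low and 2594 ± 432 in CD24high (SD, n = 3 each), the most negative difference of all members at -0.34 (SE 0.16, 95% interval -0.70 to 0.015, limma adjusted p = 0.38). Without CD24high replicate 1 the difference of CDK1 was -0.21, and without CD24low replicate 2 it was also -0.21.

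CDC25B, a phosphatase that activates CDK1 (chr20:3786772-3806121), had the most positive difference of all members. It had 1915, 2334 and 1602 in CD24low libraries against 1312, 1501 and 1872 in CD24high libraries, so CD24high replicate 3 lay inside the CD24low range. Its means were 1951 ± 367 in CD24low and 1561 ± 285 in CD24high (SD, n = 3 each), a difference of 0.32 (SE 0.17, 95% interval -0.06 to 0.70, limma adjusted p = 0.44). Leaving out replicate 3 of both groups moved it to 0.59, and leaving out CD24low replicate 2 or CD24high replicate 1 moved it to 0.18 or 0.20. With the ribosomal RNA share as a covariate it was 0.18. PLK1, the polo kinase, had 1944, 1761 and 1752 in CD24low libraries and 1347, 1490 and 1924 in CD24high libraries. CD24high replicate 3 again sat among the CD24low libraries. PLK1 differed by 0.21 (SE 0.14, 95% interval -0.10 to 0.53, limma adjusted p = 0.55), by 0.10 without CD24high replicate 1 and by 0.36 without CD24high replicate 3. With the ribosomal RNA covariate it was 0.13. AURKA, the kinase of the spindle poles, had 2090, 1985 and 2240 in CD24low libraries and 2093, 1899 and 1717 in CD24high libraries, overlapping, with a difference of 0.15 (SE 0.11, 95% interval -0.10 to 0.40, limma adjusted p = 0.60). It was 0.077 without CD24high replicate 3.

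The other entry genes were close to these. CCNB2, cyclin B2, had 1682, 1551 and 1689 in CD24low libraries and 1468, 1424 and 1458 in CD24high libraries, with no overlap, and differed by 0.18 (95% interval -0.04 to 0.40, limma adjusted p = 0.47). CDC25C, another activating phosphatase, differed by 0.10, and CCNA2, cyclin A2, by -0.12. Thus cyclin A2 and CDK1 were the negative members of a group whose other 6 members were positive.

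**Figure D2:**
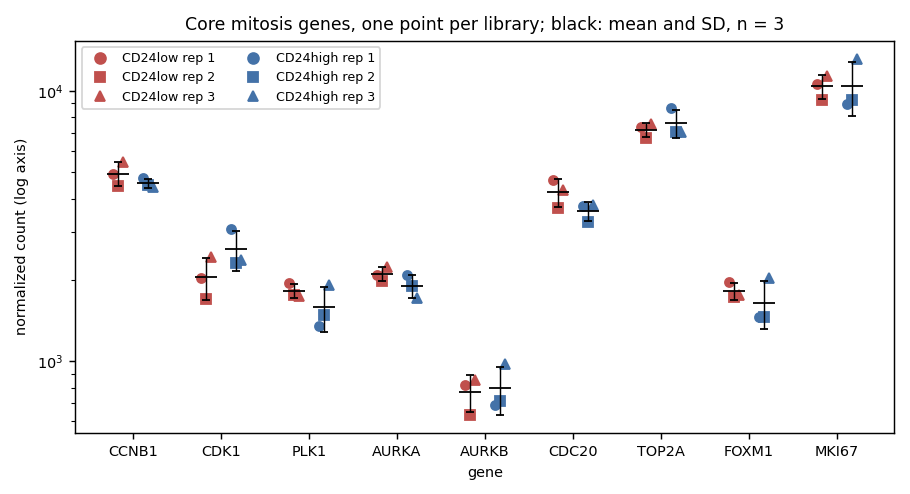
Normalized counts (log axis) of 9 core mitosis genes, 1 point per library, CD24low left of CD24high within each gene, with the mean and SD of 3 libraries in black. For each of the 9 genes the libraries of the 2 groups overlap; CDK1 is highest in CD24high replicate 1 and MKI67 in CD24high replicate 3.

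Of the 4 spindle checkpoint genes 3 were negative, with a median of -0.17 and 0 called. MAD2L1, the protein that sequesters CDC20 while kinetochores are unattached, had 1660, 1273 and 1776 normalized counts in CD24low libraries and 2275, 1688 and 1622 in CD24high libraries. Only CD24high replicate 1 lay clear of the CD24low range, and the difference was -0.24 (SE 0.17, 95% interval -0.62 to 0.13, limma adjusted p = 0.56). Leaving out CD24high replicate 1 gave -0.091 and leaving out CD24low replicate 2 gave -0.10. BUB1, a checkpoint kinase at kinetochores, had 1917, 1784 and 1939 in CD24low libraries and 2045, 1879 and 1565 in CD24high libraries, so the CD24low libraries fell within the CD24high range, and the difference was 0.05 (95% interval -0.23 to 0.32, limma adjusted p = 0.90). TTK (MPS1), the kinase that starts checkpoint signalling, had 1230, 1053 and 1310 in CD24low libraries, all below the 1521, 1345 and 1356 of CD24high libraries, with a difference of -0.24 (SE 0.12, 95% interval -0.50 to 0.03, limma adjusted p = 0.42). BUB1B (BUBR1), a part of the complex that inhibits the ligase, differed by -0.10.

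The 5 kinetochore and centromere genes held 2 positive and 3 negative values, with a median of -0.08 and 0 called. CENPE, a kinesin that moves chromosomes to the spindle equator (chr4:103105806-103198409), had 2258, 1880 and 2400 normalized counts in CD24low libraries and 3176, 2425 and 2615 in CD24high libraries. The groups did not overlap, although CD24low replicate 3 and CD24high replicate 2 were nearly level. CENPE averaged 2179 ± 269 in CD24low and 2739 ± 390 in CD24high (SD, n = 3 each), a difference of -0.33 (SE 0.14, 95% interval -0.64 to -0.02, limma adjusted p = 0.34). Without CD24high replicate 1 it was -0.22. NUF2, a subunit of the complex that binds microtubules, had 610, 542 and 623 in CD24low libraries and 722, 550 and 466 in CD24high libraries, which covered the CD24low range, with a difference of 0.05 (95% interval -0.32 to 0.42, limma adjusted p = 0.92). NDC80, the partner of NUF2 in that complex, differed by -0.20, CENPA, the histone variant that marks centromeres, by -0.08, and CENPF, a large kinetochore protein, by 0.01.

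Of the 9 mitotic kinesins, motor proteins that build the spindle and move chromosomes, 7 were negative, with a median of -0.05 and 0 called, and the paralogs KIF20A and KIF20B lay at opposite ends. KIF20A (MKLP2), which carries the chromosomal passenger complex to the midzone (chr5:138178719-138187715), had 3811, 3920 and 4135 normalized counts in CD24low libraries and 3406, 3095 and 3334 in CD24high libraries. All CD24low libraries were above all CD24high libraries. The means were 3956 ± 165 in CD24low and 3279 ± 163 in CD24high (SD, n = 3 each), a difference of 0.27 (SE 0.10, 95% interval 0.05 to 0.50, limma adjusted p = 0.29, DESeq2 adjusted p = 0.21). Leaving out any 1 library left the difference of KIF20A between 0.23 and 0.30. KIF20B (MPP1), a kinesin of cytokinesis (chr10:89701610-89774939), had 1826, 1484 and 1885 in CD24low libraries and 2612, 2005 and 1938 in CD24high libraries. These did not overlap either, and CD24high replicate 1 was far above the rest. KIF20B averaged 1732 ± 216 in CD24low and 2185 ± 372 in CD24high (SD, n = 3 each), a difference of -0.33 (SE 0.15, 95% interval -0.66 to -0.0028, limma adjusted p = 0.37), and of -0.19 without CD24high replicate 1. The other 7 kinesins lay between -0.18 for KIF23 (MKLP1), a motor of the central spindle, and 0.15 for KIF2C (MCAK), which takes microtubules apart. KIF11 (Eg5), which pushes the spindle poles apart, differed by -0.07, and KIF18A, which damps chromosome movement, by -0.15. KIF14, KIF4A and KIF15 differed by -0.05, -0.02 and -0.01, and 1.23% as many counts as KIF4A were assigned to its near copy KIF4B.

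All 3 spindle assembly genes were negative, and 2 were nearly at 0 (median -0.0049, 0 called). TPX2, the activator of AURKA on spindle microtubules, had 4214, 3798 and 4512 normalized counts in CD24low libraries and 4420, 3927 and 4189 in CD24high libraries. The means were 4174 ± 359 in CD24low and 4179 ± 247 in CD24high (SD, n = 3 each), and the difference of -0.0033 had a 95% interval from -0.25 to 0.24 (limma adjusted p = 0.99). DLGAP5 (HURP), which stabilises kinetochore fibres, differed by -0.0049. HMMR, a microtubule protein that is also a hyaluronan receptor, had 1448, 1242 and 1655 in CD24low libraries and 1915, 1482 and 1457 in CD24high libraries, overlapping, with a difference of -0.16 (SE 0.15, 95% interval -0.49 to 0.17, limma adjusted p = 0.68). Without CD24high replicate 1 the difference of HMMR was -0.030, without CD24low replicate 2 -0.052 and without CD24low replicate 3 -0.26.

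The 4 subunits of the chromosomal passenger complex, which corrects wrong attachments and then directs cytokinesis, split evenly, with a median of -0.0037 and 0 called. AURKB, its kinase, had 817, 635 and 856 normalized counts in CD24low libraries and 691, 714 and 978 in CD24high libraries. CD24high replicate 3 was the highest and CD24low replicate 2 the lowest, and the difference was -0.04 (SE 0.17, 95% interval -0.42 to 0.34, limma adjusted p = 0.94). BIRC5 (survivin) had 2486, 2110 and 2668 in CD24low libraries and 2214, 2141 and 2081 in CD24high libraries, with a difference of 0.17 (SE 0.12, 95% interval -0.09 to 0.43, limma adjusted p = 0.56). CD24low replicates 1 and 3 were above all CD24high libraries, and replicate 2 was within their range. Without CD24low replicate 3 the difference of BIRC5 was 0.095, and without CD24low replicate 2 it was 0.26. The scaffold INCENP differed by 0.0049 and CDCA8 (borealin) by -0.01.

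Genes of chromosome separation were mostly positive, 4 of 5, with a median of 0.12 and 0 called. CDC20, the activator of the anaphase-promoting complex, had 4690, 3695 and 4315 normalized counts in CD24low libraries and 3751, 3267 and 3781 in CD24high libraries. CD24low replicates 1 and 3 were above all CD24high libraries and replicate 2 was within their range. The means were 4233 ± 503 in CD24low and 3600 ± 289 in CD24high (SD, n = 3 each), a difference of 0.23 (SE 0.12, 95% interval -0.04 to 0.50, limma adjusted p = 0.44), and of 0.15 without CD24low replicate 1. PTTG1, securin, which holds separase inactive, had 2372, 2301 and 2675 in CD24low libraries, all above the 2165, 2181 and 2097 of CD24high libraries, with a difference of 0.19 (SE 0.10, 95% interval -0.05 to 0.42, limma adjusted p = 0.46). UBE2C, the E2 enzyme of the complex, had 1431, 1404 and 1518 in CD24low libraries and 1369, 1365 and 1373 in CD24high libraries, with no overlap and a difference of only 0.08. ESPL1, separase, differed by 0.12 (95% interval -0.27 to 0.51). TOP2A, the topoisomerase that untangles sister DNA, was the negative one, with 7348, 6724 and 7527 in CD24low libraries and 8635, 7084 and 7075 in CD24high libraries. Its difference was -0.07 (SE 0.12, 95% interval -0.34 to 0.20, limma adjusted p = 0.83), and the groups overlapped.

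Of the 3 cytokinesis genes 2 were negative, with a median of -0.19 and 0 called. ANLN, anillin, the scaffold of the contractile ring, had 8658, 6448 and 8583 normalized counts in CD24low libraries and 10986, 8655 and 8973 in CD24high libraries. CD24low replicate 1 exceeded CD24high replicate 2 by a few counts, so the groups just overlapped. ANLN averaged 7897 ± 1255 in CD24low and 9538 ± 1264 in CD24high (SD, n = 3 each), a difference of -0.28 (SE 0.15, 95% interval -0.61 to 0.06, limma adjusted p = 0.45). It was -0.14 without CD24low replicate 2 and -0.17 without CD24high replicate 1. ECT2, which activates RhoA for the ring, differed by -0.19. PRC1, which bundles the microtubules of the midzone, had 3967, 3647 and 3952 in CD24low libraries and 3885, 3667 and 3424 in CD24high libraries, with a difference of 0.08 (SE 0.10, 95% interval -0.15 to 0.31, limma adjusted p = 0.78), which was 0.030 without CD24high replicate 3 and 0.12 without CD24high replicate 1. The value of PRC1 is uncertain because many of its exon bases are shared with another annotated gene on the same strand. Smaller overlaps also make other members less certain, 10.2% of exon bases for BUB1B and 6.96% for CENPA on the same strand, and 9.08% for CCNA2 and 8.78% for CDC25C on the other.

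FOXM1, the transcription factor of G2 and M phase, had 1970, 1725 and 1760 normalized counts in CD24low libraries and 1457, 1465 and 2028 in CD24high libraries. CD24high replicate 3 was the highest of all 6 and the other CD24high libraries were the lowest, and the difference was 0.16 (SE 0.14, 95% interval -0.17 to 0.48, limma adjusted p = 0.67). It was 0.075 without CD24high replicate 1, 0.31 without CD24high replicate 3 and 0.065 with the ribosomal RNA covariate. For FOXM1, 15.9% of exon bases overlap ITFG2 on the other strand, which had a mean of 175 normalized counts beside 1734, and the strand setting of the read counter is not given in the sources used here. MKI67, the marker of cycling cells Ki-67 (chr10:128096659-128126385), had 10642, 9275 and 11349 in CD24low libraries and 8920, 9301 and 13186 in CD24high libraries. The CD24high libraries spanned the CD24low range. The means were 10422 ± 1054 in CD24low and 10469 ± 2360 in CD24high (SD, n = 3 each), and the difference of 0.01 had a 95% interval from -0.35 to 0.38 (limma adjusted p = 0.98).

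Levels of the members varied between libraries of the same group. Each library's median deviation of the 43 genes from their own means was 0.04, -0.11 and 0.08 in CD24low replicates 1, 2 and 3 and 0.08, -0.07 and -0.04 in CD24high replicates 1, 2 and 3. CD24low replicate 2 held the lowest value of 19 members, and CD24high replicate 1 held the highest value of 22. CD24low replicate 3, the library nearest to the CD24high libraries in CD24 and on the first component, held the highest value of 11 members and the lowest of 0. Without it the members' median difference was -0.04, and limma called 0 of them and 366 of all genes. Between the highest and the lowest of the 6 libraries the members differed 1.11-fold to 1.82-fold, with a median of 1.39-fold.

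**Figure D3:**
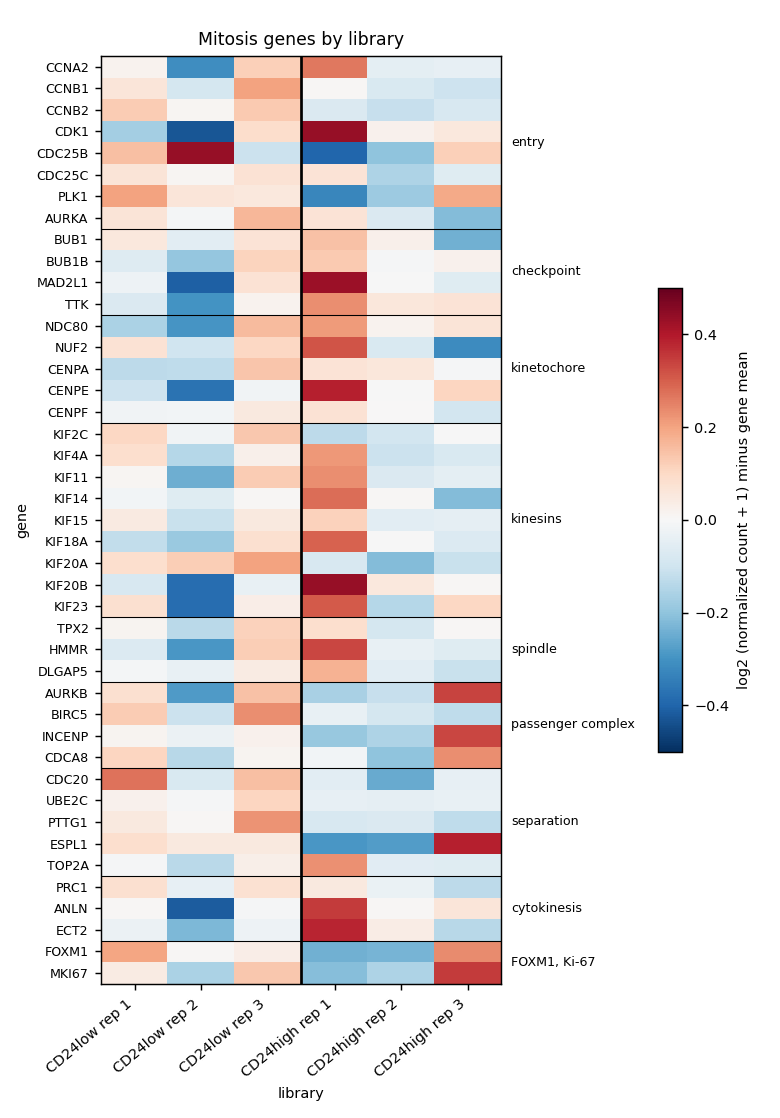
Deviation of each mitosis gene in each library from its own mean, in log2 units (colour), with the 3 CD24low libraries left of the 3 CD24high libraries and genes ordered by role. CD24low replicate 2 is low for many genes and CD24high replicate 1 is high for many, with no block of colour that follows the group line.

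Within libraries of similar ribosomal RNA share the sign of some members differed. Among libraries under 5% of ribosomal RNA (CD24low replicate 3 against CD24high replicates 1 and 2) the members' median difference was 0.05, and among the others (CD24low replicates 1 and 2 against CD24high replicate 3) it was -0.06. MKI67 differed by 0.32 in the first set and by -0.41 in the second, and AURKB by 0.28 and -0.44. KIF20A was positive in both, at 0.35 and 0.21, and CENPE negative in both, at -0.21 and -0.34. CDK1 was negative in both, at -0.14 and -0.35. PLK1 was at 0.31 and -0.057, and FOXM1 at 0.27 and -0.14. These are values of 3 libraries each, with no test.

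The differences among members followed the base composition of their transcripts. GC content of the longest protein-coding transcript ran from 34.2% (KIF20B) to 59.6% (INCENP) with a median of 43.2%, beside a median of 48.6% for all protein-coding genes tested. Across the 43 members, which share the same 6 libraries, GC content and the difference between groups had a Pearson r of 0.73, and across the 12644 protein-coding genes r was 0.20. Of the 21 members below the median GC content 17 were negative, with a median difference of -0.15, and 20 of these 21 were highest in CD24high replicate 1. Of the 22 members at or above it 16 were positive, with a median of 0.11, and 2 were highest in that library.

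The relation rested on some libraries more than on others. Across members, r of GC content with a library's deviation was 0.72, 0.63 and 0.13 in CD24low replicates 1, 2 and 3 and -0.90, -0.76 and 0.51 in CD24high replicates 1, 2 and 3. Without CD24high replicate 1, r of GC content with the difference was 0.40, and without CD24high replicate 3 it was 0.88. Within libraries of low ribosomal RNA share it was 0.82 and within those of high share 0.03. When the median deviation of all genes of like GC content was taken off in each library, an adjustment chosen after seeing the data, r was 0.27 and the members' differences ran from -0.18 to 0.26. CDK1 then differed by -0.16, CENPE by -0.09, KIF20B by -0.09, CDC25B by 0.21 and KIF20A by 0.26, with 0 members called by limma. The medians by role also moved. After the adjustment they were 0.14 for entry, -0.09 for checkpoint, -0.07 for kinetochore, 0.05 for kinesin and 0.02 for spindle genes. They were -0.08 for the passenger complex, 0.05 for separation, -0.06 for cytokinesis and 0.03 for FOXM1 with MKI67.

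**Figure D4:**
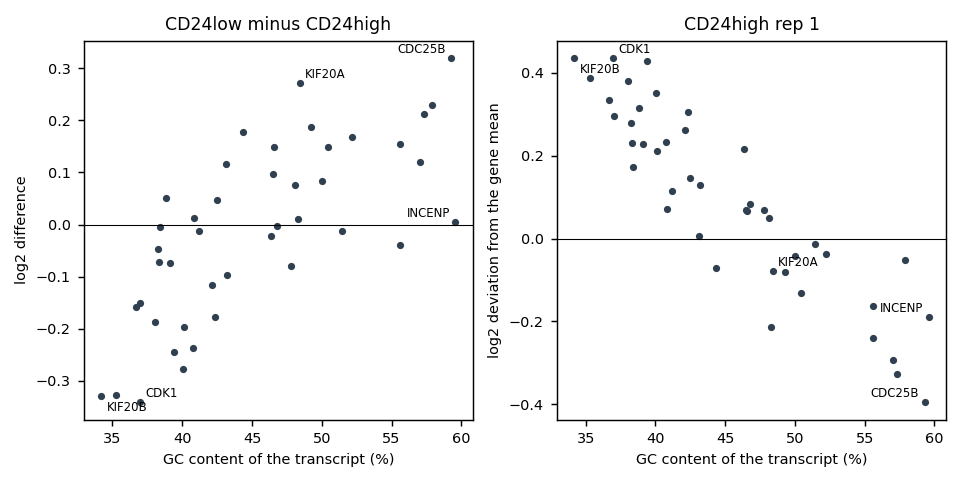
GC content of the longest protein-coding transcript (x axis, percent) of the 43 mitosis genes against their log2 difference, CD24low minus CD24high (left), and against their log2 deviation from the gene mean in CD24high replicate 1 (right), 1 point per gene. The left panel has r = 0.73 and the right panel r = -0.90; KIF20B and CDK1 lie at low GC content and CDC25B and INCENP at high GC content.

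Members with the same promoter elements had differences of both signs. The 25 genes with both a CHR and a CCAAT match had a median difference of -0.01, ranging from -0.34 to 0.32, which are also the extremes of the whole set. The 5 genes with a CCAAT match alone had a median of 0.12, the 5 with a CHR match alone -0.10, and the 2 with neither -0.09. Classes without a CHR match lack only the spellings searched, and their genes may hold other forms of the CHR. CCNB2 and PLK1, whose windows are printed, were at 0.18 and 0.21, and CDK1, with the same 2 elements, was at -0.34.

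Other genes of the same machinery, on lists chosen by function, had medians near 0 as well. All 27 further kinetochore and checkpoint genes were tested, 6 positive and 21 negative, with a median of -0.07 and 0 called by limma. The smallest p values on that list belonged to CENPK and SGO2, at -0.37 and -0.26. The 21 further spindle and cytokinesis genes had a median of -0.01, with PLK4, the kinase of centriole copying, at -0.25 and GTSE1 at 0.18. The 16 condensin and cohesin genes, which shape and hold chromosomes, also had a median of -0.01, with NCAPD2 at 0.27 and SMC2, another condensin subunit, at -0.34. The 17 subunits and partners of the anaphase-promoting complex had a median of -0.05, with ANAPC11, its RING subunit, at 0.34 and UBE2S, its chain-elongating E2 enzyme, at 0.25. A list of 19 genes held the MuvB core, MYBL2, E2F and NF-Y with RBL1, RBL2 and TFDP1, and only some of their products bind the promoter elements above. It had a median of 0.03, with LIN54, the MuvB subunit that binds the CHR, at -0.32 and MYBL2 at 0.30. None of the genes on these 5 lists was called by limma or by DESeq2.

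Both lists on the rest of the cycle held 1 gene called by DESeq2. Of 12 genes listed as brakes on mitotic entry 5 were positive and 7 negative, with a median of -0.08. Among the 12 are MASTL, ENSA and ARPP19, which promote entry, so the counts and the median mix both functions. CDKN1A (p21), an inhibitor of cyclin-dependent kinases, had 2902 ± 346 normalized counts in CD24low and 4061 ± 512 in CD24high (SD, n = 3 each), a difference of -0.48 (95% interval -0.78 to -0.19), and passed DESeq2 (adjusted p = 0.040) but not limma (adjusted p = 0.18). Within libraries of low and high ribosomal RNA share CDKN1A was at -0.22 and -0.74. SFN (14-3-3 sigma), which keeps CDK1 and cyclin B1 out of the nucleus after DNA damage, was at -0.44 and was not called. Of 24 genes of the G1/S transition and replication 11 were positive and 13 negative, with a median of -0.03. TYMS, thymidylate synthase, had 1829 ± 234 in CD24low and 1255 ± 201 in CD24high (SD, n = 3 each), a difference of 0.55 (95% interval 0.23 to 0.87), and passed DESeq2 (adjusted p = 0.036) but not limma (adjusted p = 0.17). Within libraries of low and high ribosomal RNA share TYMS was at 0.51 and 0.37. The whole list took 0.392% ± 0.0571 of protein-coding reads in CD24low and 0.392% ± 0.0254 in CD24high (SD, n = 3 each). By contrast, the 8 epithelial markers were all negative with a median of -0.60. The 5 mesenchymal markers tested were all positive with a median of 1.98. DESeq2 called 2 of the first and 4 of the second, and limma 0 of either. In libraries of low and high ribosomal RNA share the epithelial median was -0.15 and -0.95, and the mesenchymal median 0.68 and 3.25.

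**Figure D5:**
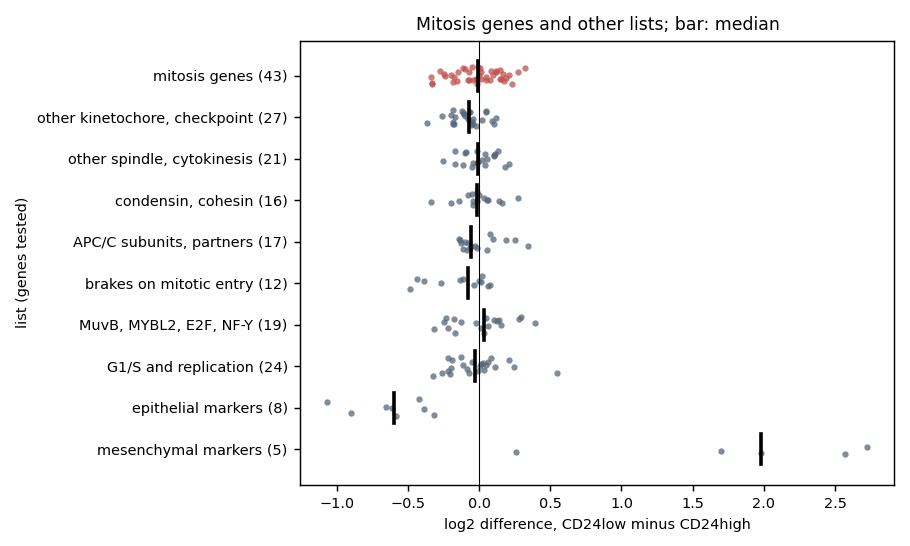
Log2 differences, CD24low minus CD24high (x axis), of the 43 mitosis genes (red) and of the genes tested on 9 other lists, 1 point per gene, with the median of each list as a bar. The medians of the mitosis genes and the 7 cell cycle lists lie between -0.08 and 0.03, while those of the epithelial and mesenchymal markers lie at -0.60 and 1.98. The row labelled brakes on mitotic entry also holds MASTL, ENSA and ARPP19, which promote entry.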

How the data were processed

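RNA was measured in 3 CD24low and 3 CD24high libraries, made from total RNA depleted of ribosomal RNA with a strand-specific kit, per the labels' protocols. The deposited values are a signal per gene, counts that the authors divided by size factors; DESeq2, STAR 2.5.2, R 3.5.0 and hg38 are named in the submitters' processing notes. Which read counter, strand setting and annotation were used is not given in the sources used here, so genes that share exons are uncertain. In each library all values were whole multiples of 1 step (0.830 to 1.46 normalized counts), and 100% gave whole reads within 0.1 reads; these recovered reads were used for edgeR and DESeq2. A gene at 0 can hide up to 3 reads per library, counting error only. Symbols were matched to GENCODE 29 for 58261 of 58381 identifiers.

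Values were compared as log2 (normalized count + 1) by limma-trend, two-sided, for 16047 genes that averaged at least 10 normalized counts, with Benjamini-Hochberg adjustment over all of them; the pseudocount slightly understates changes of low genes. It was tested on simulated data. With 3 libraries a group an exact permutation test of a single value cannot go below 0.1, so none is given. Alternatives were edgeR's quasi-likelihood test, DESeq2, other pseudocounts, filters and scalings, no trend, a replicate block, a covariate for the ribosomal RNA share and leaving out libraries. Fits ran in DESeq2 1.42.0, edgeR 4.0.16 and limma 3.58.1 under R 4.3.3, and tables and figures were made in Python 3.11.15 with numpy 2.4.6, matplotlib 3.10.9 and pandas 2.3.3.

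The members and all lists were chosen with earlier results of these data known. Full values are given for CCNB1, CDK1, PLK1, AURKA, AURKB, CDC20, TOP2A, FOXM1 and MKI67 and for the highest and lowest member of each role. At most 2 genes per other list are given with values, those with the smallest limma p. CCNB2, TTK, PTTG1 and UBE2C are described because their groups did not overlap, which was seen in the values. One marker list and details of one exon overlap are not reported here; overlaps with genes near 0 or under 5% of a member's exon bases are left out.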

Additional observations from a re-analysis of the deposited data

How the results depend on the processing

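The call of 0 mitosis genes held in each of the 21 alternatives with a test, which gave 1 to 8 members at an unadjusted p under 0.05 and a smallest adjusted p of 0.13 (limma, without replicate 3 of both groups). The members' median difference stayed between -0.07 and 0.05. Over all genes the count of calls did move, from the 0 of limma to 164 with no filter on low values, 402 with DESeq2, 716 with the replicate block in limma and 705 with the block in edgeR, and between 0 and 366 when libraries were left out (366 without CD24low replicate 3, 103 without replicate 3 of both groups); the cause was not tested. Same-numbered libraries of the 2 groups had correlations of their deviations of 0.27, 0.30 and 0.05, and differently numbered ones from -0.26 to 0.08. The values 0.27 and 0.30 were the highest of all pairs. The labels do not say whether the numbers pair the groups, so the main test did not use them as pairs. The block, which does, called 0 members. For the 21 members given in full, the difference kept its sign in 454 values under the 23 settings and changed it in 29. Of these, 7 were within libraries of like ribosomal RNA share: AURKB at 0.28, BUB1 at -0.015, NUF2 at -0.017 and TPX2 at 0.11 in the low share, and PLK1 at -0.057, FOXM1 at -0.14 and MKI67 at -0.41 in the high share. In the other fits with all libraries MKI67 was at -0.019 with total read scaling, -0.046 with the ribosomal RNA covariate, -0.0094 with edgeR and -0.0089 with DESeq2; TPX2 was at 0.024 with that covariate and 0.013 with the GC adjustment, which also put TOP2A at 0.052 and HMMR at 0.019. With 1 library left out, MKI67 ran from -0.093 to 0.19, AURKB from -0.13 to 0.12, BUB1 from -0.061 to 0.13, NUF2 from -0.094 to 0.22, TOP2A from -0.12 to 0.023 and TPX2 from -0.061 to 0.063. Without replicate 3 of both groups AURKB was at 0.036, BUB1 at -0.084 and NUF2 at -0.13. CD24high replicate 3 had the fewest reads, 16691162. Over all genes tested, libraries of 1 group differed by far more than counting error. Whether this holds for the members was not tested.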
